A study of Mus musculus with 76 samples.

Results

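The B6 control axotomy experiment set cultures whose axons had been cut against uncut cultures of the same mouse strain. It held 8 of the 70 libraries of the series, 4 cut and 4 uncut, chosen by the condition written for each library in the deposited table. All 8 came from embryonic stem cells of C57BL/6J (B6), the standard inbred laboratory strain, differentiated first into neural progenitors and then into mature neurons, and none received ID-8, the Dyrk1a inhibitor used in other cultures of the study. Polyadenylated RNA was sequenced in bulk with a stranded kit. The study compared B6 with WSB/EiJ (WSB), a wild-derived inbred strain, at a progenitor stage, a maturation stage and an axonal injury stage, with and without ID-8. The question put by the comparison here is which transcripts differ after axotomy in untreated B6 cultures. How axons were cut, and how long after the cut cells were collected, are not given in the sources used here, nor is the number of stem cell lines.

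When an axon is cut, injury signals travel back to the neuronal cell body. In peripheral sensory and motor neurons of rodents, a stress kinase cascade that includes DLK then induces transcription factors such as Atf3, Jun and Sox11 and growth-associated effectors such as Gap43, Sprr1a, Gal and Ecel1. Cut stumps degenerate through the NADase Sarm1, and surrounding glia, fibroblasts and matrix respond as in a wound.

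The culture names in the deposited table placed the 8 libraries in 4 culture sets, each with 1 uncut and 1 cut culture. The sets are called set 1 to set 4 below, and values are given in that order. Libraries of 1 set resembled each other: among all 15 B6 libraries of the axon stage, set membership held 97.5% of the variance along the first principal component, which itself held 54% of the variance. Along that component sets 1 and 2 lay on one side and sets 3 and 4 on the other, and the cut library lay on the side of sets 3 and 4 relative to its uncut partner in all 4 sets. Library totals ran from 23869912 to 62173702 expected counts. Neuronal transcripts were abundant in all 8 libraries, with Map2, a dendritic microtubule protein, at 942 to 1802 CPM (a gene's counts scaled by library size). Transcripts of other cell types were abundant too, with the astrocyte filament Gfap at 652 to 1374 CPM and the fibroblast collagen Col1a1 at 642 to 2739 CPM. The microglial receptor gene Cx3cr1 was at 0 in 7 of the 8 libraries and at 0.095 CPM in the other. The cultures were mixed, and in bulk RNA fewer cells of a type and less RNA per cell cannot be told apart.

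Axotomy was accompanied by small shifts in many transcripts. No classical regeneration-associated gene was called in the paired fit described next, in which 1.15% of all genes were called. Called genes that were higher in cut cultures included those for secreted and matrix proteins, antioxidant enzymes and a chemokine. Called genes that were lower included those for glycolytic enzymes, synaptic proteins and GDNF-family receptors. In a paired fit with the culture set as a block, edgeR's quasi-likelihood test with Benjamini-Hochberg adjustment called 198 of 17289 genes tested at an adjusted p under 0.05, or 1.15%. Of these, 85 were higher in cut cultures (0.492%) and 113 were lower (0.654%). The median log2 change was 0.50 among the higher genes and -0.38 among the lower genes, and 6 of the 198 reached a 2-fold change. One of these was the predicted gene Gm15710, at 0 in the 4 uncut libraries and 2.06, 0.946, 1.59 and 3.09 CPM in the cut ones, with 91.7% of its stretches of 50 bases shared with other genes. Across all genes tested the median change was -0.004.

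Each of the 198 called genes moved in the same direction in all 4 sets, which 36.2% of all genes did. The genes were called from a fit on these same 4 sets. Agreement over sets and separation of the groups therefore follow in part from that choice and are no separate evidence. The cut and uncut groups did not overlap for 24 of the 198, against 1.9% of all genes, and levels often differed more between sets than between the cut and uncut culture of a set. Among called genes the shift was smallest in set 2: the median of the lower genes was -0.30, -0.21, -0.47 and -0.53 in sets 1 to 4, and that of the higher genes 0.45, 0.39, 0.54 and 0.70. The median transcript length was 2386 bases for higher genes and 5148 bases for lower genes, against 3211 bases for all genes, and the median GC content was 48.4%, 56.3% and 49.7%. Over all tested genes with a known length, the log2 change had a Spearman correlation of -0.274 with length and -0.111 with GC content. With an offset for GC content 27 genes were called, 22 higher and 5 lower. With an offset for length 60 were called, 43 higher and 17 lower, so most calls lost under either offset were of lower genes. Both offsets were chosen after seeing the data.

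The number of calls was fragile. Without the set block no gene passed (602 at an unadjusted p under 0.05, smallest adjusted p 0.747). Leaving out 1 library gave 463 calls without the uncut library of set 1, 3 without its cut library, and 6 and 3204 without the uncut and cut libraries of set 2. It gave 1 call when either library of set 3 was left out and 2 when either library of set 4 was. Many genes sat just past the threshold, with 313 higher and 551 lower genes at an adjusted p between 0.05 and 0.06. All 34 called genes of the 125 followed one by one kept their direction under each of 20 other settings. These settings used the same libraries or a part of them, so the kept directions are no separate evidence.

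**Figure D1:**
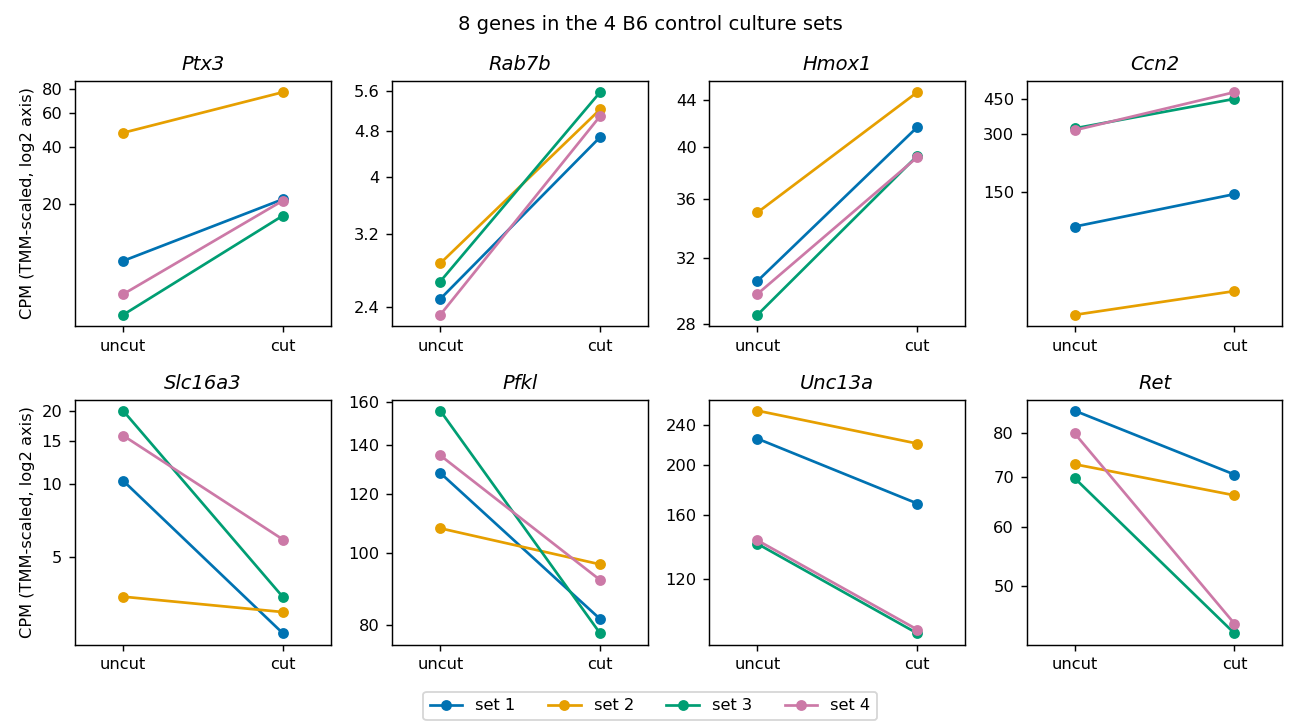
CPM of 8 genes in the uncut and cut library of each culture set, on log2 axes that differ between panels, with 1 line per set and 1 library per point. Every line of the upper row rises and every line of the lower row falls, while the distance between sets often exceeds the change within a set, as for Ccn2 (34.9 to 319 CPM uncut).

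Several of the higher genes with the smallest p encode secreted or matrix proteins. Ptx3 encodes pentraxin 3, a secreted pattern-recognition protein that also organises matrix. Its level was 10.1, 47.4, 5.28 and 6.77 CPM in uncut cultures of sets 1 to 4 and 21.3, 77.3, 17.5 and 20.9 CPM in cut cultures. Set 2 was far above the other sets in both groups, which overlapped, yet the cut culture was the higher one in every pair. The log2 change was 1.25 ± 0.13 (adjusted p = 0.00547), and the call was lost in 3 of the 20 other settings, the fewest of the 34 called genes followed one by one. Vegfd, a growth factor for lymphatic vessels, changed by 1.25 ± 0.20 (adjusted p = 0.036). Efemp1, the matrix protein fibulin-3, rose by 0.83 ± 0.10, Ccn3, a matricellular growth regulator, by 0.96 ± 0.13, and Spon2, the matrix protein spondin 2, by 0.63 ± 0.10 (adjusted p from 0.0066 to 0.036). The serine protease gene Prss23 was measured at 91.7, 58.5, 83.0 and 83.9 CPM uncut and 140.3, 98.7, 154 and 178 CPM cut. Every cut library lay above every uncut one, and the change was 0.83 ± 0.12 (adjusted p = 0.0243).

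Rab7b, a small GTPase of traffic between endosomes and the Golgi, was called with no overlap of the groups. Uncut cultures held 2.48, 2.85, 2.65 and 2.33 CPM and cut cultures 4.68, 5.22, 5.58 and 5.08 CPM. Levels differed little between sets, the groups were far apart, and the log2 change was 1.00 ± 0.13 (adjusted p = 0.0142). Npr3, the clearance receptor for natriuretic peptides, rose by 0.94 ± 0.13 and Plekho2, a pleckstrin-domain protein, by 0.48 ± 0.08. The called genes further included Angpt2, a ligand of the Tie2 receptor, at 0.83 ± 0.16, Anxa1, a phospholipid-binding protein that limits inflammation, at 0.74 ± 0.14 and the guidance cue Sema3c at 0.67 ± 0.14, which were picked out after their values were seen. Of the 18 tested members of the list of matrix and wound proteases none was called, while 7 were higher and 1 lower at an unadjusted p under 0.05, against 10.7% and 15.2% of all genes. Their median log2 change was 0.28. The protease inhibitor Timp1 stood at 0.57 ± 0.14 and the matrix protein Thbs1 at 0.51 ± 0.16 (adjusted p 0.0527 and 0.0737).

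Antioxidant genes under the factor NRF2 included 2 called members, both higher. Hmox1 encodes heme oxygenase 1, which degrades heme. It was at 30.5, 35.1, 28.5 and 29.7 CPM in uncut and 41.7, 44.7, 39.3 and 39.2 CPM in cut cultures, with no overlap and a change of 0.42 ± 0.06 (adjusted p = 0.0142). Nqo1, a quinone reductase, was at 10.5, 19.5, 9.64 and 9.23 CPM uncut and 14.6, 25.5, 11.7 and 15.1 CPM cut. It was higher in the cut culture of each pair, with set 2 above the others, and changed by 0.47 ± 0.08 (adjusted p = 0.036). All 9 members tested had a positive change and 2 were called, against 0.492% of all genes, with a median of 0.12. The cystine transporter Slc7a11 (0.42 ± 0.18) and the thioredoxin reductase Txnrd1 (0.11 ± 0.06) were not called. Outside the list, and chosen after their values were seen, the peroxiredoxin Prdx1 rose by 0.34 ± 0.06, the glutathione transferase Gstm2 by 0.58 ± 0.11 and the ferritin heavy chain Fth1 by 0.32 ± 0.07.

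Inflammatory genes leaned higher as well. Of the 11 tested members of the list of NF-kB and chemokine genes, 2 were called higher (0.492% of all genes were), 9 were higher at an unadjusted p under 0.05 (10.7% of all genes were), and none was lower. The list's median log2 change was 0.46, and Cxcl2, Il1b, Il6 and Tnf were too low to be tested. Ccl7, a monocyte chemoattractant, was at 2.61, 11.8, 4.49 and 5.12 CPM uncut and 4.26, 15.8, 9.01 and 11.6 CPM cut. The cut culture was higher in every pair while the groups overlapped, and the change was 0.81 ± 0.15 (adjusted p = 0.0415). The leukocyte adhesion molecule Icam1 changed by 0.40 ± 0.09 (adjusted p = 0.0498). The neutrophil chemokine Cxcl1 stood at 0.86 ± 0.26 and the monocyte chemokine Ccl2 at 0.60 ± 0.20, neither called. Cxcl1 was low, at 0.233 to 1.33 CPM uncut and 0.45 to 2.26 CPM cut. In the interferon list 6 of 17 members were higher at an unadjusted p under 0.05 and none was called, with the ubiquitin-like Isg15 at 0.68 ± 0.15 (adjusted p = 0.0525) and a median of 0.31. Summed over the microglia and macrophage list, levels were 33.4 to 78.7 CPM uncut and 35.9 to 88.1 CPM cut, higher in the cut culture of 4 of 4 sets. Of its 14 genes 6 were under 0.1 CPM in every library, among them the microglial Trem2, Tyrobp and C1qa. The part of these cells in the chemokine result was not tested.

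Cytoskeletal and mechanical response genes leaned higher in the same cultures. Ccn2 (connective tissue growth factor), a classical target of the co-activator YAP, was at 99.5, 34.9, 319 and 312 CPM uncut and 146, 46.3, 452 and 489.9 CPM cut. The sets spanned a wide range, the groups overlapped, and within pairs the cut culture was always higher, by 0.53 ± 0.08 (adjusted p = 0.0224). Tpm1, an actin-binding tropomyosin, rose by 0.42 ± 0.09 (adjusted p = 0.0498). These were the 2 called members of 13 tested in the list of SRF and YAP targets, against 0.492% of all genes called higher. In all, 8 were higher at an unadjusted p under 0.05, against 10.7% of all genes, none was lower, and the median was 0.42. The smooth muscle actin Acta2 (0.57 ± 0.19) and its partner Tagln (0.59 ± 0.21) were not called. The summed level of 12 markers of fibroblasts and mesenchyme was 3177, 8258, 4118 and 3848 CPM in uncut and 3592, 8358, 5565 and 5601 CPM in cut cultures. Acta2 and Tagln belong to both lists. Without them, a choice made after seeing the data, the sum was 2461, 8111, 3182 and 3019 CPM uncut and 2811, 8113, 4045 and 4090 CPM cut, so that it was higher in sets 1, 3 and 4 and nearly equal in set 2. In set 2 the collagens Col1a1 (2739 and 2631 CPM) and Col1a2 (1158 and 1120 CPM) were lower in the cut culture. The part of these cells in the result was not tested.

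Lists of p53 targets, immediate early genes, the ATF4 response and the cell cycle gave no calls, against 0.492% of all genes called higher and 0.654% called lower. At an unadjusted p under 0.05, 10.7% of all genes were higher and 15.2% lower, and 8517 of 17289 genes had a positive change. For the 15 targets of p53 the change was positive for all 15, with 9 at an unadjusted p under 0.05 and a median of 0.26. Ccng1, a cyclin induced by p53, was at 325, 251, 545 and 535 CPM uncut and 399.5, 306, 784 and 762 CPM cut, a change of 0.41 ± 0.10 (adjusted p = 0.0527). The p53 ubiquitin ligase Mdm2 stood at 0.39 ± 0.10 (adjusted p = 0.0559). Immediate early genes, which neurons switch on within minutes of stimulation, had a median of 0.29, with 5 of 20 higher at an unadjusted p under 0.05 and none lower. By set their medians were 0.44, -0.07, 0.33 and 0.33, so set 2 was the exception. Junb, a subunit of the factor AP-1, stood at 0.44 ± 0.13. Of 20 genes of the ATF4 stress response 9 were higher and 2 lower at an unadjusted p under 0.05, with a median of 0.10, and the pro-apoptotic factor Ddit3 stood at 0.23 ± 0.11 (adjusted p = 0.186). All 24 cell cycle genes had a positive change, 7 of them at an unadjusted p under 0.05, with a median of 0.14. Chaperones did not move together: the inducible Hsp70 gene Hspa1a fell, from 17.1, 19.7, 16.9 and 18.4 CPM uncut to 10.6, 15.4, 11.0 and 13.1 CPM cut, with no overlap and a change of -0.53 ± 0.09 (adjusted p = 0.0415). Hspa1a shares 59% of its sampled stretches of 50 bases with other genes, and its near-identical neighbour Hspa1b stood at -0.22 ± 0.10 without a call, so the split of reads between them is uncertain.

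**Figure D2:**
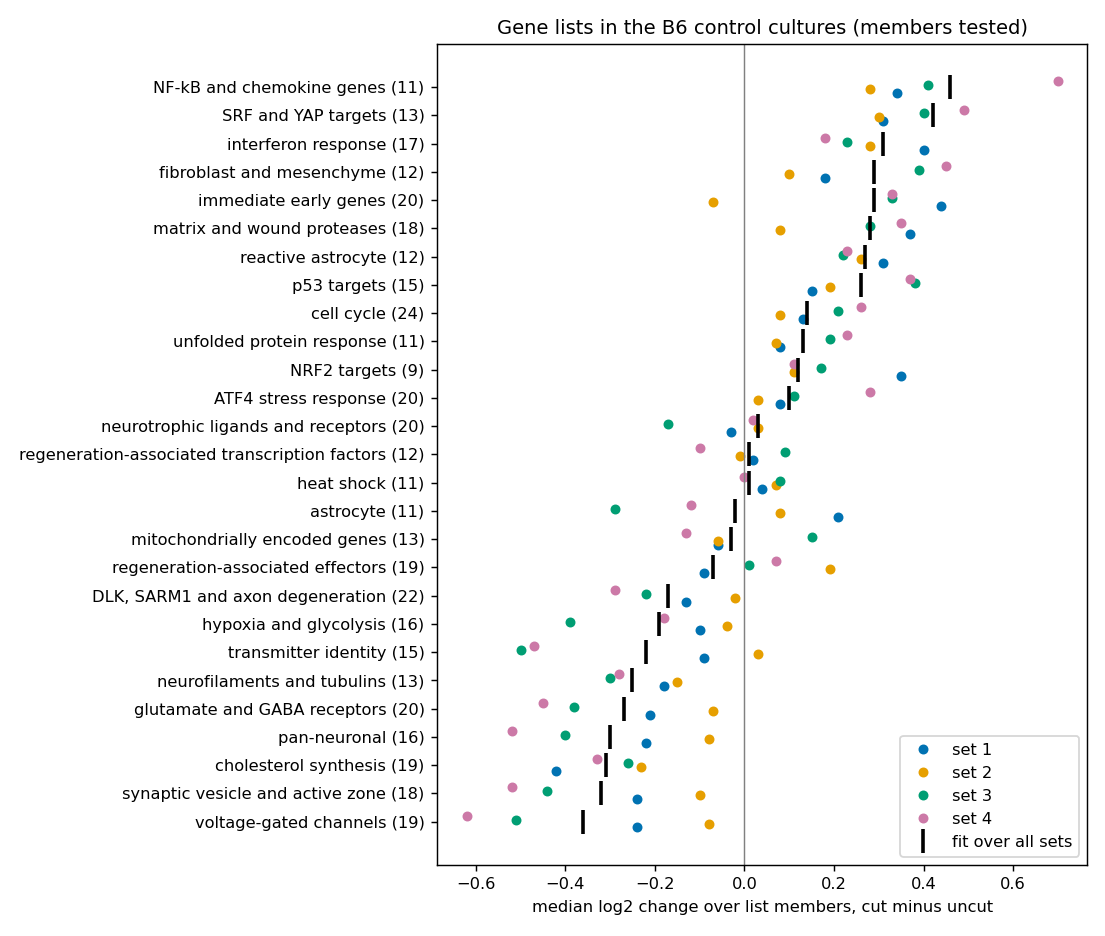
Median log2 change, cut minus uncut, over the tested members of 27 gene lists, with 1 coloured point per culture set and a black bar for the paired fit over all sets. In the fit, neuronal, cholesterol and glycolysis lists lie left of 0 and chemokine and SRF or YAP lists right of it, the transmitter identity list has 1 set right of 0 (0.03 in set 2), and set 2 is often the set nearest to 0.

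Among called genes the steepest fall was in Slc16a3, which encodes MCT4, the transporter that carries lactate out of glycolytic cells. It was at 10.3, 3.44, 20.0 and 15.8 CPM in uncut and 2.43, 2.98, 3.43 and 5.91 CPM in cut cultures. The drop was large in sets 1, 3 and 4, while set 2 began low and changed little, and the groups overlapped. The log2 change was -1.64 ± 0.27 (adjusted p = 0.036). Pfkl, the liver-type phosphofructokinase that commits sugar to glycolysis, averaged 132 ± 19.7 CPM (SD, n = 4) in uncut cultures and was at 81.4, 96.5, 77.9 and 92.0 CPM in cut ones. All cut libraries lay below all uncut ones. The log2 change was -0.66, -0.16 and -0.56 in sets 1, 2 and 4, larger in set 3, and -0.59 ± 0.10 (adjusted p = 0.036) in the fit. Further glycolytic enzymes, picked out after their values were seen, were also called. Triosephosphate isomerase (Tpi1) changed by -0.43 ± 0.09, from 302, 259, 374 and 329 CPM to 212, 248, 218 and 256 CPM, without overlap. Glucose-6-phosphate isomerase (Gpi1) changed by -0.32 ± 0.07, the platelet-type phosphofructokinase Pfkp by -0.33 ± 0.06 and hexokinase 1 (Hk1) by -0.37 ± 0.08, all at an adjusted p of 0.0416 to 0.0498.

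The list of hypoxia and glycolysis genes, targets of the hypoxia-inducible factor HIF, showed the same lean less uniformly. Of 16 members tested 1 was called lower, against 0.654% of all genes. At an unadjusted p under 0.05, 7 were lower and 1 higher, against 15.2% and 10.7% of all genes, and the median was -0.19. Bnip3, a mitophagy receptor, was at 79.5, 61.1, 112 and 113 CPM uncut and 55.1, 56.0, 61.1 and 87.0 CPM cut. Sets 1, 3 and 4 dropped clearly, set 2 slightly, and the change was -0.48 ± 0.10 (adjusted p = 0.0498). Lactate dehydrogenase A (Ldha) was at 344, 282, 398 and 363 CPM uncut and 235, 267, 242 and 305 CPM cut, a change of -0.40 ± 0.09 (adjusted p = 0.0527). Enolase 1 (Eno1) stood at -0.37 ± 0.09 (adjusted p = 0.0527), but 70% of its sampled stretches are shared with other genes. Adm, the vasodilator peptide adrenomedullin, went the other way. It was at 6.49, 7.63, 6.43 and 7.17 CPM uncut and 9.99, 10.3, 10.9 and 12.6 CPM cut, with no overlap and a change of 0.65 ± 0.16 (adjusted p = 0.054). The glucose transporter Slc2a1 stood at -0.0038 ± 0.12.

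The upstream 250 bases of 4 of these genes are shown because HIF binds the letters ACGTG or GCGTG in promoters of glycolytic genes, and each of these 4 windows holds a match. Sequences are RefSeq's on GRCm38.p6, read 5′ to 3′ toward the transcription start, with each match to ACGTG or GCGTG on either strand in capitals (CACGT and CACGC are the same letters on the other strand). For Ldha the window of the first of its listed starts is shown.
Slc16a3 (chr11:120948817-120949066, + strand): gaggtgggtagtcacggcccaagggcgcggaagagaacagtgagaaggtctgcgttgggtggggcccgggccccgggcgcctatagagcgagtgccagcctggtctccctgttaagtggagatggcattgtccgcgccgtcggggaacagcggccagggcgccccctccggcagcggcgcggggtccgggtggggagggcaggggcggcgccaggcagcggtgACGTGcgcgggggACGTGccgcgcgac
Pfkl (chr10:78009808-78010057, - strand): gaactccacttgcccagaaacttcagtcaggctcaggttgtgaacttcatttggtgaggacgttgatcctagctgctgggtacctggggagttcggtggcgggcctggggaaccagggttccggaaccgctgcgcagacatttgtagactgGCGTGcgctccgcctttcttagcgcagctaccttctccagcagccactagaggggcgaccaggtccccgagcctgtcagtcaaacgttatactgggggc
Bnip3 (chr7:138909507-138909756, - strand): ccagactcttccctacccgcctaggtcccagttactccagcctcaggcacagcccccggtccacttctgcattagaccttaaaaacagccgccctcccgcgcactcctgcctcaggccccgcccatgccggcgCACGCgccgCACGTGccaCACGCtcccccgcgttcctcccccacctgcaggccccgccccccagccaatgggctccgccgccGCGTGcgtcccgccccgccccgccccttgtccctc
Ldha (chr7:46845554-46845803, + strand): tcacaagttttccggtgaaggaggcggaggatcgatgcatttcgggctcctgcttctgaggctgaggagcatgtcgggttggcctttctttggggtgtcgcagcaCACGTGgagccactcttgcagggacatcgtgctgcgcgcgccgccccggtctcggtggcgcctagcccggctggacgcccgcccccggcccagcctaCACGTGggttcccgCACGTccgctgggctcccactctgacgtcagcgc
Counting both strands, ACGTG occurred 2 times for Slc16a3, 2 times for Bnip3 and 5 times for Ldha, where a CACGTG counts once on each strand. GCGTG occurred 3 times for Bnip3 and 1 time for Pfkl, which had no ACGTG. Not every gene described had a match: the called Tpi1 and Gpi1 held neither motif. The other Ldha window held 0 ACGTG and 1 GCGTG, and each Eno1 window held 0 ACGTG and 1 or 2 GCGTG. Pfkp held 3 GCGTG, 1 of the windows of Hk1 held 3 and the other 0, and Adm, which was not lower, held 2. Of the 15 list members with a promoter in the table, 12 held ACGTG in any of their windows. The share was 23.9% of 12698 tested genes and 18.5% of all 27025 genes with a promoter. The list was drawn from known HIF targets, so this describes its make-up. ACGTG was found for 11 of 64 higher genes (17.2%) and 19 of 83 lower genes (22.9%), against 23.9% of 12698 tested genes with a promoter. GCGTG was found for 24 higher genes (37.5%) and 43 lower genes (51.8%), against 47.2%. TGACTCA, the AP-1 motif (either strand), was found for 7 of 64 higher genes (10.9%) and for 0 of 83 lower genes, against 4.21% of tested genes. TATAAA on either strand was found for 11 of 64 higher genes (17.2%) and 1 of 83 lower genes (1.2%), against 8.54% of tested genes. For TGACNNNGC, the core of the NRF2 element, the shares were 12.5% of higher, 13.3% of lower and 13.8% of tested genes. For GGAATG, the motif of the TEAD factors through which YAP acts, they were 15.6%, 8.43% and 13.3%. Both motifs were searched on either strand, 6 motifs were searched in all, and a match describes the letters and no bound factor.

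Neuronal transcripts leaned lower in each functional group. Among 16 pan-neuronal genes all 16 had a negative change, with a median of -0.30. Of these 13 were lower at an unadjusted p under 0.05 (15.2% of all genes were) and 1 was called (0.654% of all genes were). The called member was Ncam1, the neural cell adhesion molecule, at 563, 682, 349 and 379.7 CPM uncut and 464, 599.8, 258 and 229 CPM cut. The cut culture was lower in each pair, the groups overlapped, and the change was -0.41 ± 0.08 (adjusted p = 0.0498). Rbfox3, the splicing factor known as NeuN, stood at -0.33 ± 0.08 (adjusted p = 0.0527) and Nefm, the medium neurofilament, at -0.47 ± 0.12 (adjusted p = 0.0559). Of 18 genes of synaptic vesicles and active zones 15 were lower at an unadjusted p under 0.05 and 1 was called, with a median of -0.32. That gene was Unc13a, which primes vesicles for release, at 225, 256, 141 and 143 CPM uncut and 169, 220.5, 94.3 and 95.9 CPM cut. The fall was shallow in set 2 and steep in sets 3 and 4, and amounted to -0.44 ± 0.08 (adjusted p = 0.0425). The active zone scaffold Bsn stood at -0.37 ± 0.09 and the calcium sensor Syt1 at -0.41 ± 0.11.

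Receptors and channels showed like values. Of 20 glutamate and GABA receptor genes 15 were lower at an unadjusted p under 0.05 (15.2% of all genes were), with a median of -0.27. Of the 20, 1 was called lower, against 0.654% of all genes. The kainate receptor subunit Grik1 was the called member, at 19.8, 19.0, 19.5 and 22.9 CPM uncut and 15.8, 14.9, 11.9 and 12.7 CPM cut. These groups did not overlap, and the change was -0.56 ± 0.12 (adjusted p = 0.0498). The NMDA receptor subunits Grin1 and Grin2b stood at -0.42 ± 0.11 and -0.47 ± 0.13. All 19 voltage-gated channel genes had a negative change, 16 at an unadjusted p under 0.05, with a median of -0.36 and no call. Median transcript length was 9658 bases for channels, 5629 for receptors and 3013 for the transmitter identity list, against 3211 for all genes. The calcium channels Cacna1b and Cacna1e stood at -0.44 ± 0.10 and -0.42 ± 0.10, each at an adjusted p of 0.0527. Genes of transmitter identity were less uniform across sets, with medians of -0.09, 0.03, -0.50 and -0.47, and 5 of 15 lower at an unadjusted p under 0.05. The GABA synthesis enzyme Gad2 stood at -0.32 ± 0.10 and the vesicular glutamate transporter Slc17a6 at -0.21 ± 0.08, neither called.

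The summed pan-neuronal level was 10490, 12220, 7769 and 8240 CPM in uncut and 9035, 11420, 6088 and 6296 CPM in cut cultures. It was lower in the cut culture of 4 of 4 sets (exact two-sided sign-flip test, p = 0.125, the smallest 4 pairs allow). Ignoring the pairs, an exact two-sided permutation test of 4 against 4 libraries gave p = 0.371, where 0.0286 is the smallest possible. The astrocyte sum did not follow, at 2901, 3700, 2878 and 2498 CPM uncut and 3249, 3733, 2374 and 2350 CPM cut. It was higher in 2 sets and lower in 2 (exact sign-flip test, p = 0.75). A separate list of 12 reactive astrocyte genes had a median log2 change of 0.27 and no call. At an unadjusted p under 0.05, 5 were higher and 0 lower, against 10.7% and 15.2% of all genes. The reactive sum was higher in the cut culture of 4 of 4 sets, and the filament gene Vim held most of it (1688.5 of 2165 CPM in uncut set 1). The fibroblast sum without the genes shared with the SRF and YAP list, given above, was higher in the cut culture of sets 1, 3 and 4 and nearly equal in set 2. Whether cut cultures held a smaller share of neurons was not tested.

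**Figure D3:**
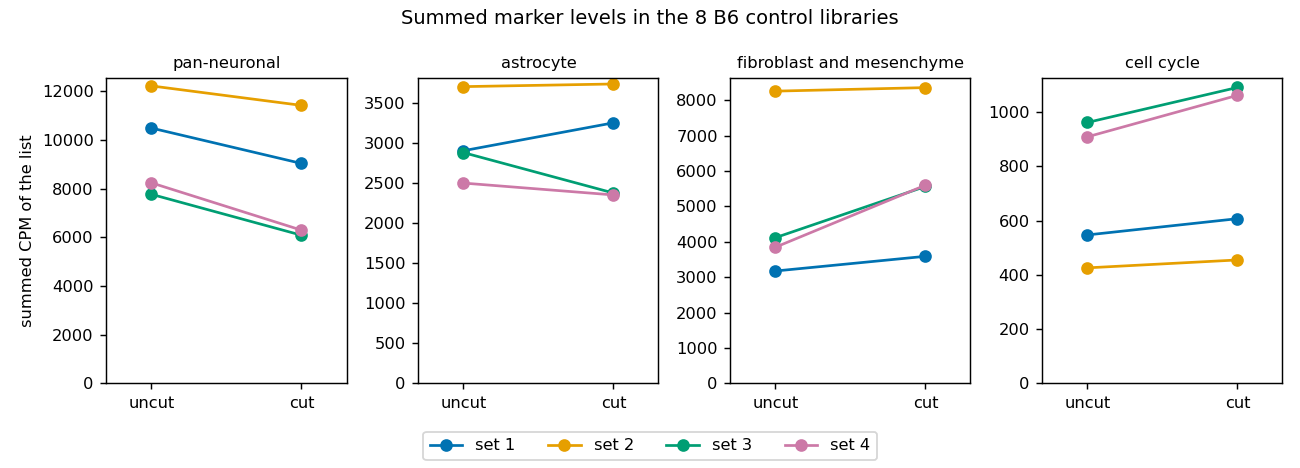
Summed CPM of 4 lists in the uncut and cut library of each culture set, 1 point per library, with axes that start at 0. Pan-neuronal sums are lower and cell cycle sums higher in the cut culture of all 4 sets, the fibroblast sum in set 2 barely differs (8258 and 8358 CPM), and set 2 has the highest fibroblast sum.

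GDNF-family receptors were among the called lower genes. Ret, the receptor tyrosine kinase for GDNF-family ligands, was at 85.8, 72.7, 69.7 and 80.0 CPM uncut and 70.4, 66.1, 43.2 and 44.5 CPM cut. Each cut culture was lower than its partner, most in sets 3 and 4, and the change was -0.49 ± 0.10 (adjusted p = 0.0498). Gfra1, the co-receptor that binds GDNF, was at 135, 104, 104 and 111 CPM uncut and 104, 97.9, 69.2 and 71.1 CPM cut, a change of -0.42 ± 0.08 (adjusted p = 0.0416). They were the 2 called genes of 20 tested in the list of neurotrophic ligands and receptors, against 0.654% of all genes called lower, and the list's median was 0.03. The oncostatin M receptor Osmr (0.33 ± 0.08) and the CNTF receptor Cntfr (-0.27 ± 0.07) lay in opposite directions without calls.

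Cholesterol synthesis genes leaned lower in every set. All 19 had a negative change, against 8772 of all 17289 genes. At an unadjusted p under 0.05, 17 were lower, against 15.2% of all genes, and none was called. The medians were -0.42, -0.23, -0.26 and -0.33 in sets 1 to 4. Lanosterol synthase (Lss) stood at -0.49 ± 0.11 and Srebf2, the factor that switches the pathway on, at -0.31 ± 0.08. Called genes of lipid synthesis outside the list, chosen after their values were seen, were Fasn, the fatty acid synthase, at -0.39 ± 0.09, and Acly, which supplies acetyl-CoA, at -0.37 ± 0.08. Neuronal and non-neuronal cells both make cholesterol, and the part of cell composition in this result was not tested.

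Several of the remaining genes with the smallest p on the lower side are known from neurons. Apc2, a neuronal relative of the APC tumour suppressor that binds microtubules, fell from 509.8, 679.8, 295 and 294 CPM to 412, 539, 213 and 197 CPM, a change of -0.42 ± 0.07. Ttbk1, a kinase of tau and tubulin, changed by -0.45 ± 0.08, the transmembrane semaphorin Sema6c by -0.33 ± 0.06, the homeobox factor Zfhx2 by -0.34 ± 0.06, and Nwd2 and Vstm2l by -0.47 ± 0.08 and -0.36 ± 0.07. Others have wider roles: Tgfbi, a matrix protein induced by TGF-beta, changed by -0.74 ± 0.11, the peptidase Ace by -0.62 ± 0.11 and the histone demethylase Kdm4b by -0.31 ± 0.05. Adjusted p-values for these 9 genes ran from 0.032 to 0.0415.

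The classical regeneration-associated genes gave no call in this fit, where 0.492% of all genes were called higher and 0.654% lower. At those shares, no call among lists of 12 and 19 tested genes does not set them apart from other genes. Some members were called under other settings. Of the 20 other settings, Ecel1 was called lower in 4, Gap43 lower in 2, Sox11 lower in 1 and Atf3 higher in 1. Calls over all genes in these settings ran from 0 of 17344 without set 4 to 3496 of 17193 without set 2. DESeq2 called 2375 of 17289, so these few calls do not set the genes apart either. Atf3 was at 3.96, 4.74, 18.3 and 16.6 CPM uncut and 4.89, 4.87, 24.8 and 26.7 CPM cut. Its level depended on the set far more than on the cut, and the change was 0.43 ± 0.26 (adjusted p = 0.323). Jun stood at -0.05 ± 0.10 (adjusted p = 0.817), with a sign that changed when 1 library was left out, and Sox11, a factor that promotes axon growth, at -0.27 ± 0.09 (adjusted p = 0.0732). Gap43, the growth cone protein, was at 840.2, 981, 642 and 695 CPM uncut and 718, 954, 559 and 605 CPM cut, lower in the cut culture of each pair, with a change of -0.16 ± 0.08 (adjusted p = 0.243). The peptidase Ecel1 stood at -0.36 ± 0.10 (adjusted p = 0.0589). The neuropeptide Gal, at 0.444 to 2.3 CPM, stood at -0.07 ± 0.28, again with a sign that changed between settings. Sprr1a, a small proline-rich protein, did not exceed 0.306 CPM, so that a change was not detectable at this depth. Over 12 transcription factors of the list the median was 0.01, with 0 higher and 3 lower at an unadjusted p under 0.05. Over 19 effectors it was -0.07, with 5 higher and 3 lower, where 10.7% of all genes were higher and 15.2% lower. These medians changed sign in 8 and 6 of the 20 other settings, so no direction is given for either list. Tnfrsf12a, the receptor of the cytokine TWEAK, had the largest value among the effectors, at 0.80 ± 0.23 (adjusted p = 0.0624).

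Genes of the DLK and SARM1 pathways leaned lower. Of 22 tested 1 was called lower, against 0.654% of all genes. At an unadjusted p under 0.05, 12 were lower and 2 higher, against 15.2% and 10.7% of all genes, and the median was -0.17. The called gene, Map3k13, encodes LZK, a kinase closely related to DLK, and was at 28.6, 35.2, 19.8 and 19.9 CPM uncut and 23.3, 30.5, 15.2 and 13.8 CPM cut. It was lower in the cut culture of each pair, with a change of -0.35 ± 0.08 (adjusted p = 0.0498). Sarm1, the executioner of axon degeneration, stood at -0.35 ± 0.08 (adjusted p = 0.054), and the JNK scaffold Mapk8ip3 at -0.28 ± 0.06 (adjusted p = 0.0524). The pan-neuronal sum, given above, was lower in the same 4 cut cultures. Dyrk1a, the target of ID-8, was at 128, 128, 113 and 117.9 CPM uncut and 123, 133, 98.3 and 97.8 CPM cut, a change of -0.12 ± 0.06 (adjusted p = 0.226).

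The same cut was made in B6 cultures given ID-8 (4 uncut and 3 cut libraries of the same culture sets, none of set 2 among the cut) and in untreated WSB cultures (4 uncut and 4 cut). These share no library with the 8 described here. In the ID-8 cultures the cut called no gene (586 at an unadjusted p under 0.05), and 3 of 16932 genes were called in WSB (0.0177%), 2 of them higher (0.0118%) and 1 lower (0.00591%). Those 3 genes, named after their values were seen, were Lbp (1.35 ± 0.14 in WSB and 0.34 ± 0.10 in B6 control), Plscr2 (1.00 ± 0.11 and 0.63 ± 0.26) and Trank1 (-0.54 ± 0.07 and -0.37 ± 0.07), of which Trank1 was called in both. The difference between the ID-8 and the control response, tested as an interaction in the same edgeR fit, called 0 of 17289 genes, with 835 at an unadjusted p under 0.05, and 9 by DESeq2. The interaction of strain with the cut called 2 of 16932 genes (0.0118%), Gm26825 and Atp6v0c-ps2, both lower in the WSB response.

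Genes called in the B6 control cultures lay mostly in the same direction elsewhere. Of the 198, 187 had the same sign in the ID-8 cultures, 75 of 85 higher genes and 112 of 113 lower genes. In WSB 182 of the 198 had the same sign, 77 of the higher genes among them. Over all genes 11259 of 17289 had the same sign in the ID-8 cultures and 11814 of 16721 in WSB. Median changes of the higher genes were 0.16 with ID-8 and 0.30 in WSB, and of the lower genes -0.15 and -0.33. The sizes in B6 control cultures, 0.50 and -0.38, come from the cultures that chose the genes and are not comparable on equal terms. Rab7b stood at 1.00 in the control response and -0.13 with ID-8, a difference of -1.12 ± 0.21 (adjusted p = 0.845, unadjusted p = 0.000102). The hydroxylase-like gene Moxd1 stood at 0.85 and -0.18 in the same order, and Npr3 at 0.94 and 0.06 (adjusted p = 0.845 for each difference). Slc16a3 stood at -1.64 in B6 control, -1.27 with ID-8 and -1.78 in WSB.

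Lists can be set side by side in the same way, without a test of their difference. Voltage-gated channel genes had medians of -0.36 in B6 control, -0.13 with ID-8 and -0.51 in WSB, and the hypoxia and glycolysis list -0.19, -0.09 and -0.46. NF-kB and chemokine genes read 0.46, 0.26 and -0.19, immediate early genes 0.29, 0.21 and -0.26, and ATF4 genes 0.10, 0.09 and -0.37. Over all genes the medians were -0.004, -0.011 and -0.016. In WSB set 4 mitochondrially encoded genes held 10.7% to 11.9% of the counts of the control libraries, against 3.04% to 4.17% in the 8 B6 control libraries, and the part of this in the WSB values was not tested.

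**Figure D4:**
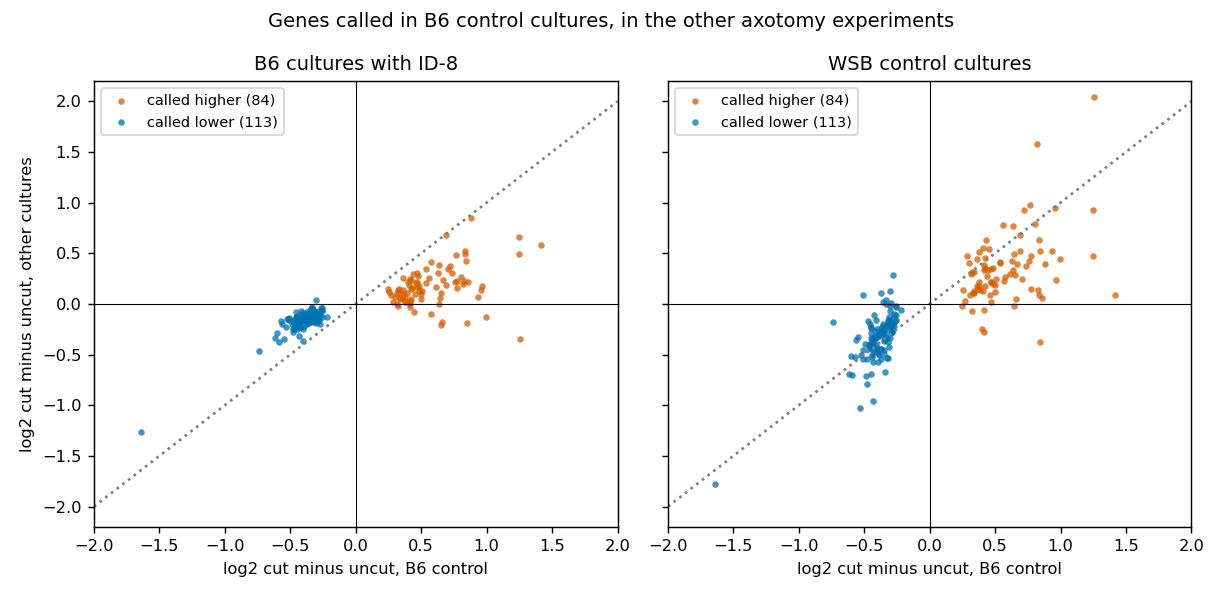
Log2 change after the cut in B6 cultures with ID-8 (left) and in WSB control cultures (right), against that in B6 control cultures, for 197 of the 198 called genes (1, Gm15710, lies outside the axes). Each point is a gene, and the dotted line marks equal changes. Most points share the sign of the B6 control change, with medians of the higher genes at 0.16 with ID-8 and 0.30 in WSB.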

How the data were processed

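The authors deposited estimated (expected) counts per gene for each sequencing run. Per the submitters' processing notes, Bowtie2, RSEM, featureCounts, limma and the GRCm38 build were used, with versions, roles and strand settings not given in the sources used here. In the deposited expected counts 9.318% of values were not whole numbers. Repeat runs of a library were summed (the cut library of set 2 and the uncut library of set 4 had 2 runs), and sums were rounded to whole numbers. IDs without a symbol, 1317 of 38924, held 0.2205% of the counts of the 8 libraries. The labels name no molecular identifiers, so counts may include PCR copies.

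The 8 libraries were fitted together with the 7 ID-8 libraries of the axon stage, all 15 being B6, in edgeR 4.0.16 (R 4.3.3) with TMM scaling, filterByExpr, robust quasi-likelihood dispersions and the culture set as a block. The fit left 8 residual degrees of freedom. Genes were called at a Benjamini-Hochberg adjusted p under 0.05 over all genes tested. A log2 change is cut minus uncut and is followed by its standard error, and levels are TMM-scaled CPM. The response of WSB was compared over 16 control libraries with sets nested in strain. Pairs came from the culture names in the deposited table: all 21 same-set pairs of libraries deviated together from their group means, with correlations of at least 0.473. The highest between sets, 0.697, was above that, so the correlations do not part every set from every other. Within a group, counts of sets 3 and 4 were the most alike (chi-square per degree of freedom 8.18 uncut and 14.8 cut, other pairs 57.6 to 245). The fit treats them as separate sets, and whether they are separate replicates was not tested. The p-values measure the spread between these libraries, and the labels do not say that the sets are independent differentiations. On simulated counts of 17289 genes, 100 were changed 1.5-fold and 100 2-fold. The cut test recovered 59 and 80 of them, with 13 false calls beside these. Changes under 1.5-fold (a log2 change of about 0.59) were not simulated. The median called genes here, at 0.50 and -0.38, lay under that size, so these rates do not describe them.

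Named genes were the 12 with the smallest p in each direction at 2-fold or more, filled up at any fold, among called genes of mean log2 CPM of at least 1. To these were added the leading members by p of every list (4 at most), a fixed set of regeneration genes with Ddit3 and Dyrk1a, and the 4 leading genes in each direction of each interaction. The comparison, the gene lists and the tests were chosen with earlier results of these data known. Shared sequence is the share of 50-base stretches, taken every 25 bases, that also occur in another gene. Promoter windows and their matches come from RefSeq's table on GRCm38.p6. Alternatives covered DESeq2 1.42.0 in place of edgeR, scaling, filtering, the block, repeat runs, the libraries used, and omission of each library or set. Offsets for GC content and length and a threshold of 0.1 were chosen after seeing the data.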

Additional observations from a re-analysis of the deposited data

Results flagged for a closer look

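Among 78 groups of 4 libraries that were examined, 5 held 1 library far from the other 3, each time that of set 2, where chance sets apart about 1 in 20 groups. Ptx3 was at 47.4 CPM in the uncut culture of set 2, against 10.1, 5.28 and 6.77 CPM in sets 1, 3 and 4, and at 77.3 CPM in its cut culture, against 21.3, 17.5 and 20.9 CPM. In uncut cultures of set 2, Efemp1 was at 112 CPM (others 40.2, 48.4 and 45.4 CPM), Ccn3 at 45.9 CPM (others 14.4, 16.7 and 16.9 CPM) and Nqo1 at 19.5 CPM (others 10.5, 9.64 and 9.23 CPM). Set 2 also held the highest fibroblast sum, 8258 CPM uncut, and the part of these cells was not tested.

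The interaction of strain with the cut called 2 predicted loci. Gm26825 differed by -8.63 on the log2 scale (WSB minus B6, edgeR adjusted p = 0.00131). It was at 0 in all 4 uncut B6 libraries and at 2.86, 0.27, 0 and 0.65 CPM in the cut ones, while the WSB libraries held 333 to 588 CPM. Atp6v0c-ps2 differed by -8.16 (adjusted p = 0.00791). It was at 0 in the uncut B6 libraries and at 1.99, 0.1, 0 and 0.07 CPM in the cut ones, and 88.2% of its 50-base stretches are shared with other genes. Both differences rest on low levels in B6 cut libraries against 0 in uncut ones, so their size is no fold. Without set 1 of B6, and with all WSB libraries kept, neither was called, the count then being 0. Other loci that WSB libraries held at over 50 CPM were also highest, among B6 control libraries, in the cut library of set 1: Rpl3-ps1 was at 1.2 CPM there, Gm9825 at 0.996 CPM and Gm11223 at 0.766 CPM, and each was at or under 0.576 CPM in the other 7. The cause was not tested.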

How the results depend on the processing

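The count of 198 called genes was 195 with RLE scaling and 157 with first runs only. It became 409 without the filter on low counts, 1701 with the 8 control libraries alone, 2375 with DESeq2 and 2408 at an adjusted p under 0.1, and fell to 27 with a GC offset and 60 with a length offset. Without the replicate block it was 0. Leaving out 1 library gave 1 to 3204 calls, and leaving out a whole set 0 to 3496 (11 without set 1, 3496 without set 2, 0 without set 3 and 0 without set 4). The interaction with ID-8 called 0 genes except for 9 with DESeq2. The interaction with strain, 2 calls, gave 4 at an adjusted p under 0.1 and 0 without the block. It gave 9 with DESeq2 and 5 without the filter. With all WSB libraries kept, it gave 0 without set 1 of B6 and 4 without set 3 of B6. The cause of these shifts was not tested. Among 125 genes followed singly, 4 changed sign, none of them called. Gal (-0.07) was 0.01 with first runs only, ran from -0.33 to 0.15 when 1 library was left out, and was 0.02 without set 1 and 0.18 without set 3. Jun ran from -0.11 to 0.02 without 1 library, Sprr1a was 0.11 without set 1, and Apoe was 0 with the length offset. Of the 34 called genes among them, 16 were still called with the GC offset, 22 with the length offset and 0 without the block. Depth limits genes under about 1 CPM, such as Sprr1a.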
